A study of Drosophila melanogaster with 2 samples.

Results

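The genes for proteins of the large subunit of the cytosolic ribosome were examined in a map of Gcm2-GFP binding in fly embryos. Members were all protein-coding genes with a symbol starting with RpL in the Ensembl annotation of dm6, leaving out the mRpL genes of the mitochondrial ribosome and 4 symbols containing "like". This gave 50 RpL genes among 13945 protein-coding genes on the 6 chromosome arms. The data came from ChIP-seq, in which DNA bound to a protein is precipitated with an antibody and sequenced. The single group was whole Drosophila melanogaster embryos of both sexes, aged 0 to 24 h, of strain gcm2-GFP, a transgenic line stably making Gcm2 with GFP at its C terminus. Its 2 libraries, biological replicates 2 and 3, were precipitated with anti-GFP after chromatin had been sonicated to 200 to 800 bp. No library of untagged embryos was analysed here, so signal that needs the tagged protein and signal that does not cannot be told apart. Whole embryos hold all cell types and peak lists carry no expression, so no cell type could be checked, and which promoter drives the transgene is not given in the sources used here.

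Gcm2 is a transcription factor with a zinc-containing DNA-binding domain and acts with its paralog Gcm in glia and blood cells. The large subunit joins amino acids at its peptidyl transferase centre, which is made of ribosomal RNA, and its proteins fold and hold that RNA, line the exit tunnel and form the stalk that recruits translation factors. All growing cells need these proteins in matched amounts, and in the fly the loss of 1 copy of many of the genes gives the Minute phenotype of slow development and short, thin bristles. Their promoters in the fly are known for lacking a TATA box and for starting transcription at a polypyrimidine initiator, the TCT motif, in place of the usual initiator. DREF, which binds the DRE motif, and M1BP, which binds motif 1, are promoter factors of many housekeeping genes of the fly.

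The promoters below are shown because they span the range of the binding signal, with 6 of the most strongly bound members followed by 2 with no retained peak. Each runs 5′ to 3′ on the gene's own strand, from 120 bases before the main transcription start site (TSS), the one shared by most annotated transcripts, to 15 after it, in Release 6 of the reference (dm6). Capitals mark matches to the DRE (TATCGATA), to motif 1 (GGTCACACT, on either strand) and to the TCT initiator (CTTT with C or T on each side, its first C within 10 bases of the TSS).
RpL7 (chr2L:10200884-10201019, plus strand): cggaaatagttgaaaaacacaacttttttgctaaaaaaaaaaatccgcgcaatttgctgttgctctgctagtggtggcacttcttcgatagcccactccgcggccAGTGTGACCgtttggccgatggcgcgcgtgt
RpL14 (chr3L:8600886-8601021, plus strand): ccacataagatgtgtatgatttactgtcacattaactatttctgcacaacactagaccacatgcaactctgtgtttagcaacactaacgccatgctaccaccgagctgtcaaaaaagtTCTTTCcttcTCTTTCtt
RpL34b (chr3R:9401211-9401346, minus strand): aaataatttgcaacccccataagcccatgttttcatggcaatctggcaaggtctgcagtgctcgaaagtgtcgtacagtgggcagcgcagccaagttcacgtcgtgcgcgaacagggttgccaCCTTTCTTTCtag
RpL23A (chr3L:1668639-1668774, minus strand): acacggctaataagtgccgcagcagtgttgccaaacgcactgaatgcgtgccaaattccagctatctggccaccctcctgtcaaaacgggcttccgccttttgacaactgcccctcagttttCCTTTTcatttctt
RpL24 (chr2L:13395077-13395212, minus strand): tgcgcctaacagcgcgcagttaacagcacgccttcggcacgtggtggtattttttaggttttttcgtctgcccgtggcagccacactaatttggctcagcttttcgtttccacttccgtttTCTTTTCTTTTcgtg
RpL28 (chr3L:3222943-3223078, minus strand): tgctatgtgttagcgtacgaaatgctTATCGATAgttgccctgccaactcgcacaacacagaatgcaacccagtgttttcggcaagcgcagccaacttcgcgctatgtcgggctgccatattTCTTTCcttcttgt
RpL34a (chr3R:26059252-26059387, minus strand): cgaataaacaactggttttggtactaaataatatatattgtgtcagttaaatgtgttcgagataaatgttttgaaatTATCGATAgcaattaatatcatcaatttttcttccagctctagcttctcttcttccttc
RpL10Aa (chr3R:15037246-15037381, plus strand): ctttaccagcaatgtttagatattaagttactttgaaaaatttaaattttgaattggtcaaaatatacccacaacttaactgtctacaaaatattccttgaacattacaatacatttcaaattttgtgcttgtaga
Of the bound promoters, RpL14, RpL34b, RpL23A, RpL24 and RpL28 carried the initiator at or just after the annotated start, RpL28 also had a DRE, and RpL7 had motif 1 read on the other strand. RpL34a had a DRE and no initiator, and RpL10Aa had no capitals at all.

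Most RpL genes had a retained binding peak at their start. An IDR peak, a region that the authors kept by its irreproducible discovery rate between replicates, had its summit within 1 kb of a TSS of 34 of 50 RpL genes (68.0%, 95% Wilson interval 54.2 to 79.2), against 12.7% of all protein-coding genes (1766 of 13945). The interval covers counting error only. With as many of the strongest regions of each library's own list as there were IDR peaks, replicate 2 reached 34 RpL genes (68.0%, against 12.8% of all genes) and replicate 3 reached 32 (64.0%, against 12.7%). The mean was 33.0 ± 1.41 genes (SD, n = 2 libraries), so the members exceeded all genes by more than the libraries differed. Both libraries reached 30 members in this way and at least 1 reached 36, counts for which no share over all genes is given here. Replicate 2 reached the same 34 genes as the IDR list, while replicate 3 added RpL34a and RpLP2 and lacked RpL9, RpL29, RpL35 and RpL37-1.

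Weaker regions brought the count closer to the whole set. Any pooled candidate lay within 1 kb of a TSS at 45 RpL genes (90.0%), against 62.6% of all genes. Candidates with a deposited q-value at or below 0.05 lay there at 42 (84.0%), against 31.1%. In some list, 47 members had a candidate, and RpL10Aa, RpL21 and RpL37-2 had one in none. No share over all genes is given here for that count, and the pooled and replicate lists each reached 62.4 to 62.6% of them. By chromosome arm, an IDR summit was present at 9 of 12 members on 2L, 6 of 12 on 2R, 7 of 10 on 3L, 7 of 10 on 3R and 5 of 6 on X. Over all genes the share was 12.8% on 2L and on 2R, 13.7% on 3L, 13.1% on 3R and 10.7% on X, and chromosome 4 holds no RpL gene.

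The IDR peaks of RpL genes were also stronger than those of most genes. The signal value is the authors' own enrichment per region and has no replicate error, and it was used to rank regions within a list, with rank 1 the strongest. The strongest IDR peak of a member had a signal from 57.9 to 326 with a median of 121, against a median of 86.2 over all genes with such a peak. Their median IDR rank was 500 of 2177, against 987 for all genes. Of the 34 members, 18 (52.9%) ranked among the 544 strongest IDR peaks, against 29.0% of all genes with a peak. Over the 45 members with a pooled candidate, the strongest had a median rank of 730 of 30000, against 6919 for all genes, and with genes lacking a candidate counted last the medians were 987.5 and 16069.

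**Figure D1:**
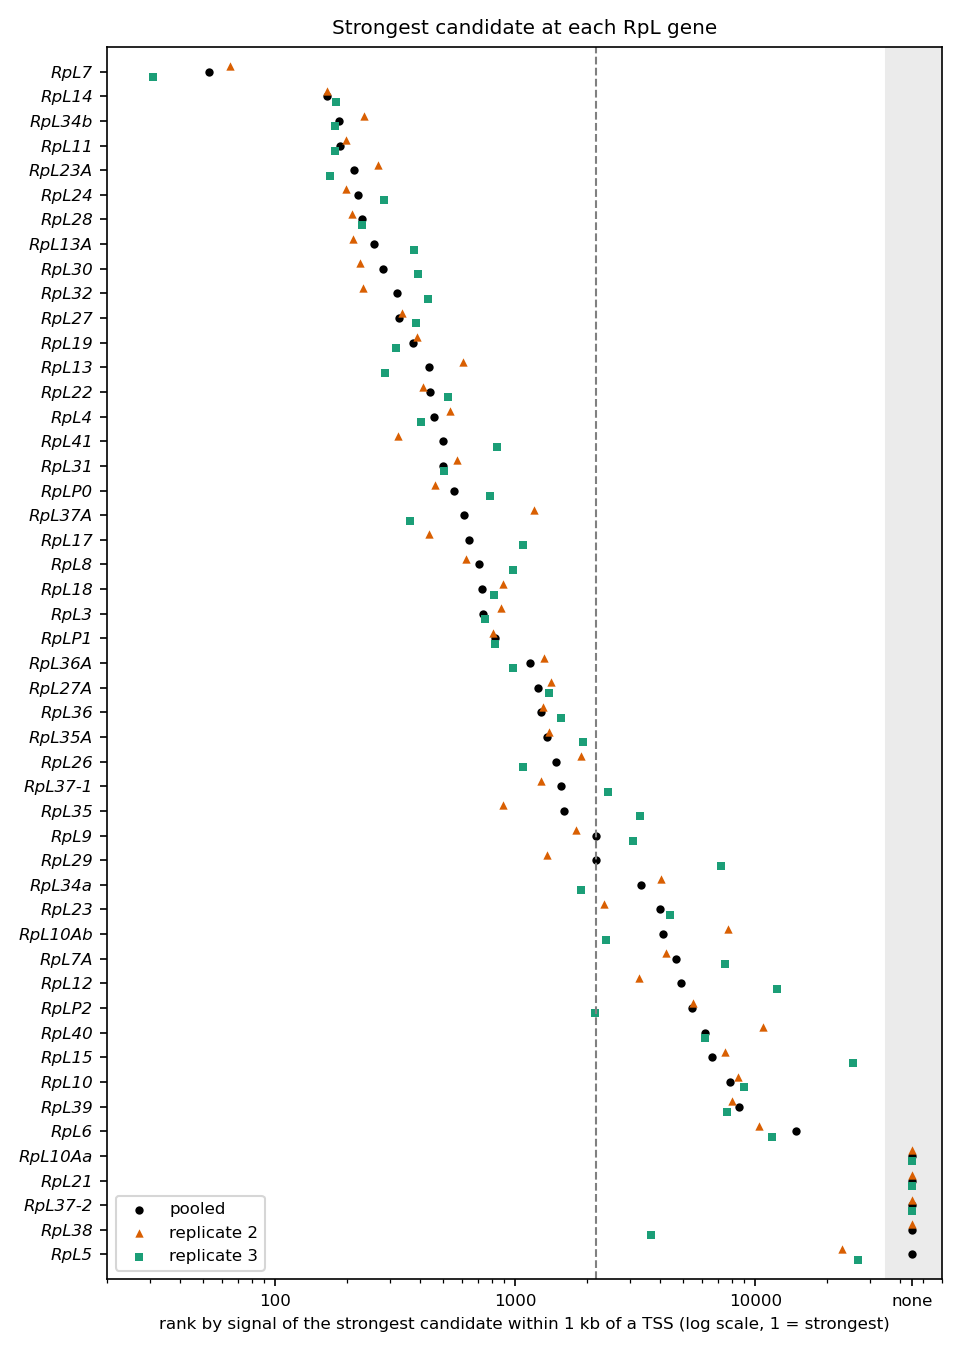
Rank by signal of the strongest candidate within 1 kb of a TSS of each of 49 RpL genes, on a log scale with 1 the strongest, for the pooled list (circles), replicate 2 (triangles) and replicate 3 (squares). The dashed line marks rank 2177, the last IDR peak, and symbols in the grey band have no candidate; 33 pooled circles lie left of the line or on it, and the 5 members at the bottom have no pooled candidate.

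RpL7, a protein that lies near the 5S RNA, had the strongest peak. It ranked 53 in the pooled list with signal 326, and it ranked 65 in replicate 2 (signal 155) and 31 in replicate 3 (signal 172). The summit lay at +24 bp, inside the 5′ UTR, where the count is from the TSS and negative values are upstream. The TSS of Ripalpha lay 30 bp from that of RpL7 on the other strand, and 54 bp from the summit. It was the member with the highest signal in the pooled list and in each library.

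The next 3 members differed little in rank. RpL14, a Minute gene of the fly, ranked 164 (signal 193), with ranks of 165 in replicate 2 and 179 in replicate 3. RpL34b ranked 185 (signal 181), with 235 in replicate 2 and 177 in replicate 3. RpL11, which with RpL5 and the 5S RNA forms a particle that enters the subunit as one unit, ranked 187 (signal 181), with 198 in replicate 2 and 178 in replicate 3. The libraries therefore gave different orders among these genes, and their order is not resolved. Their summits lay upstream in all cases, at −20 bp for RpL14, −86 bp for RpL34b and −63 bp for RpL11.

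RpL23A, RpL24 and RpL28 ranked next. RpL23A, which sits at the tunnel exit and in the fly carries an extension like histone H1, ranked 213 (signal 172), with 267 in replicate 2 and 170 in replicate 3. Its summit at −92 bp was the farthest upstream of all but 1 member with an IDR peak. RpL24, which forms a bridge to the small subunit, ranked 222 (signal 170), with 197 in replicate 2 and 283 in replicate 3. RpL28 ranked 230 (signal 169), with 209 in replicate 2 and 229 in replicate 3. Both were bound upstream, RpL24 at −38 bp and RpL28 at −72 bp. In the promoters printed above RpL24 is drawn from its main TSS, from which the same summit lies at −77 bp.

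A further 8 genes completed the 15 strongest. RpL13A, known in mammals for a second role in silencing translation, had signal 163 and ranked 258, with 210 in replicate 2 and 380 in replicate 3. RpL30, which in yeast binds its own transcript and blocks its splicing, had signal 156 and ranked 282, with 226 in replicate 2 and 395 in replicate 3. RpL32, widely used under the name rp49 as a reference transcript in fly work, had signal 147 and ranked 323, with 232 in replicate 2 and 433 in replicate 3. All 3 ranked higher in replicate 2 than in replicate 3. RpL27 ranked 328 (signal 146; 338 in replicate 2 and 385 in replicate 3) and RpL19, another Minute gene, 376 (signal 138; 391 and 319 in the same order). RpL13 ranked 436 (signal 128; 606 and 287), and the TSS of Dref, the gene of DREF, lay 16 bp from its summit, nearer than that of RpL13 at 68 bp. RpL22, which in the fly also carries an extension like histone H1, ranked 442 (signal 127; 414 and 525). RpL4, which reaches into the exit tunnel, ranked 458 (signal 126; 537 and 404). Each of the 15 ranked among the 606 strongest regions in both libraries.

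Members of the functional centres did not share one level. RpL3, which lies beside the peptidyl transferase centre, ranked 732 (signal 101), with 869 in replicate 2 and 745 in replicate 3, and its summit was at +17 bp. RpL8, close to the same centre, ranked 707 (signal 103). RpL10, which in yeast joins the subunit last in the cytoplasm and completes that centre, had no IDR peak, and its strongest pooled candidate ranked 7878 (signal 28.7), with 8505 in replicate 2 and 8960 in replicate 3. RpL23, at the interface with the small subunit, had none either and ranked 4011 (signal 41.6). Of these genes RpL10 lay beyond the outermost IDR summit of its arm, where pooled candidates were few, as described below.

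The stalk genes were likewise uneven. RpLP0, the stalk base, ranked 558 (signal 116), with 465 in replicate 2 and 788 in replicate 3. RpLP1, which with RpLP2 forms the dimers on that base, ranked 825 (signal 94.3), with 812 in replicate 2 and 821 in replicate 3. RpLP2 had no IDR peak: its strongest pooled candidate ranked 5466 (signal 34.9), with 5504 in replicate 2 and 2159 in replicate 3. In replicate 3 its rank was thus within the 2177 strongest regions and in replicate 2 it was not. The candidate of replicate 3 lay at −280 bp and that of replicate 2 at −830 bp, and a weaker pooled candidate lay nearer the start, at −57 bp (rank 9833).

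The 5S RNA pair was split. RpL11 was among the 4 strongest members, whereas RpL5 had no pooled candidate within 1 kb and ranked 22945 in replicate 2 and 26725 in replicate 3. RpL5 lay beyond the outermost IDR summit of its arm, with 23 pooled candidates within 500 kb, against 268 at RpL11. The part of this position in the contrast was not tested. Among the small proteins, RpL41, one of the shortest proteins known, ranked 498 (signal 121), with 324 in replicate 2 and 837 in replicate 3. RpL40, made as a fusion to ubiquitin, had no IDR peak and ranked 6181 (signal 32.6), with 10739 in replicate 2 and 6203 in replicate 3.

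Paralogs with near-identical names differed in every pair. RpL34b ranked 185 and RpL34a 3335 (signal 46.2). RpL34a was reached by the strongest regions of replicate 3 (rank 1881) and not by those of replicate 2 (rank 4049). RpL10Ab ranked 4122 (signal 40.9), with 7711 in replicate 2 and 2379 in replicate 3, while RpL10Aa had no candidate in any list and the nearest pooled summit lay 45375 bp away. RpL37-1 ranked 1554 (signal 68.7), with 1283 in replicate 2 and 2436 in replicate 3, and RpL37-2 had no candidate, the nearest pooled summit being 3233 bp away. Reads that match both genes of a pair could have been divided or dropped before the lists were made, and how they were treated is not given in the sources used here.

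At RpL genes the IDR summits sat almost on the TSS. The strongest summit lay between −92 and +24 bp at 33 of 34 members, the exception being RpL26 at −630 bp. The median distance was 29.5 bp, against 168 bp for all genes with an IDR summit within 1 kb. Summits within 100 bp of a TSS were found at 33 members (97.1%), against 32.3% of all such genes, and within 50 bp at 23 (67.6%), against 17.0%. As to the side, 28 members (82.4%) had the summit upstream, against 82.6% of all genes. The median signed offset was −29.5 bp, against −127 bp. The median distance of the members was 45.0 bp without replicate 2, against 170.0 bp for all genes, and 53.0 bp from the main TSS alone, against 178 bp. The nearness was also present where a gene had a single annotated TSS, with 15 of 15 members within 100 bp, against 31.1% of all genes with 1 TSS (285 of 917). Where the gene was also the nearest to its summit, 32 of 32 members lay within 100 bp with a median distance of 26 bp, against 41.9% of all such genes (499 of 1190) and 124 bp.

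**Figure D2:**
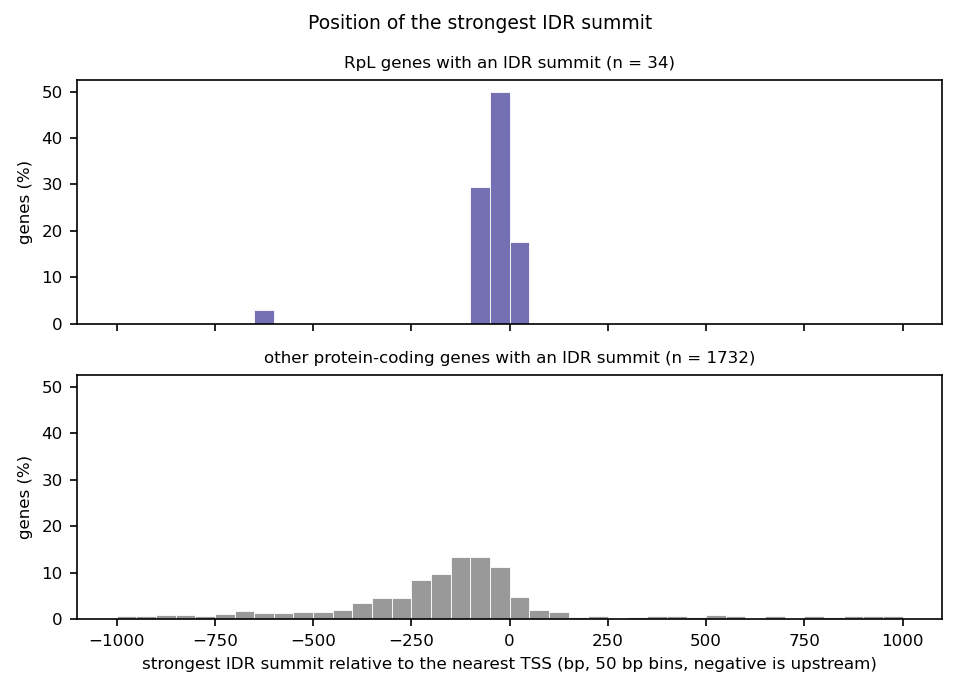
Position of the strongest IDR summit relative to the nearest TSS of the gene, in 50 bp bins with negative values upstream, as a percentage of genes. The upper panel holds 34 RpL genes, 33 of them between −100 and +50 bp, and the lower panel the 1732 other protein-coding genes with such a summit, which spread widely upstream.

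Counted from the nearest TSS, few summits lay downstream of the start, at RpL3, RpL7, RpL8, RpL9, RpL27A and RpL36. This was so at 1 of the 18 members among the 544 strongest IDR peaks, against 13.6% of all such genes (70 of 513), and at 5 of the other 16, against 18.8% (236 of 1253). The counts are small, and at some members, RpL8 among them, the side differed between libraries. The side also depended on the TSS taken, since from the main TSS the summit lay at −47 bp at RpL36 and at +25 bp at RpL36A. By annotation, 25 summits lay upstream of the gene, 8 in a 5′ UTR and 1, that of RpL35, in an intron near an inner TSS. Most IDR regions have a fixed width of 464 bp, and 11 member regions (32.4%) were narrower, at 116 to 279 bp, against 15.6% over all genes with a peak. These 11 were all strong, with ranks from 53 to 442, and widths were not compared at like rank.

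Promoters shared with a neighbour could carry a second peak. A gene on the opposite strand had its TSS within 1 kb, head to head, at 29 members, and 23 of them (79.3%) had an IDR summit, against 21.1% of all genes with such a neighbour (963 of 4564). Of 21 members without one, 11 had an IDR summit (52.4%), against 8.56% of all such genes (803 of 9381). Peaks were thus more frequent beside such a neighbour among all genes too. The 34 members held 39 distinct IDR summits, and 5 members held 2 each, among them RpL18, RpL26, RpL32 and RpL34b. At RpL18, RpL32 and RpL34b the second summit was 202 to 214 bp farther upstream and lay at the neighbour: 2 bp from the TSS of Neos at RpL18, 59 bp from CG7943 at RpL32 and 20 bp from CG8132 at RpL34b. A like spacing also occurred in the pooled list where no other protein-coding TSS lay within 1 kb of the strongest summit. RpL27 had a weaker candidate at −210 bp beside that at −8 bp, and RpL10 one at −229 bp beside that at −27 bp. Whether the second summits belong to the neighbours was not tested. At RpL26 the order was turned round, with the stronger summit at −630 bp (rank 1480), 48 bp from the TSS of CG3902, and the weaker at +41 bp (rank 1645). RpL26 and RpL13 were the members whose strongest summit lay nearer another gene. No other protein-coding TSS lay within 1 kb of the summit at 10 of the 34, among them RpL11, RpL23A, RpL24, RpL30 and RpL22.

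**Figure D3:**
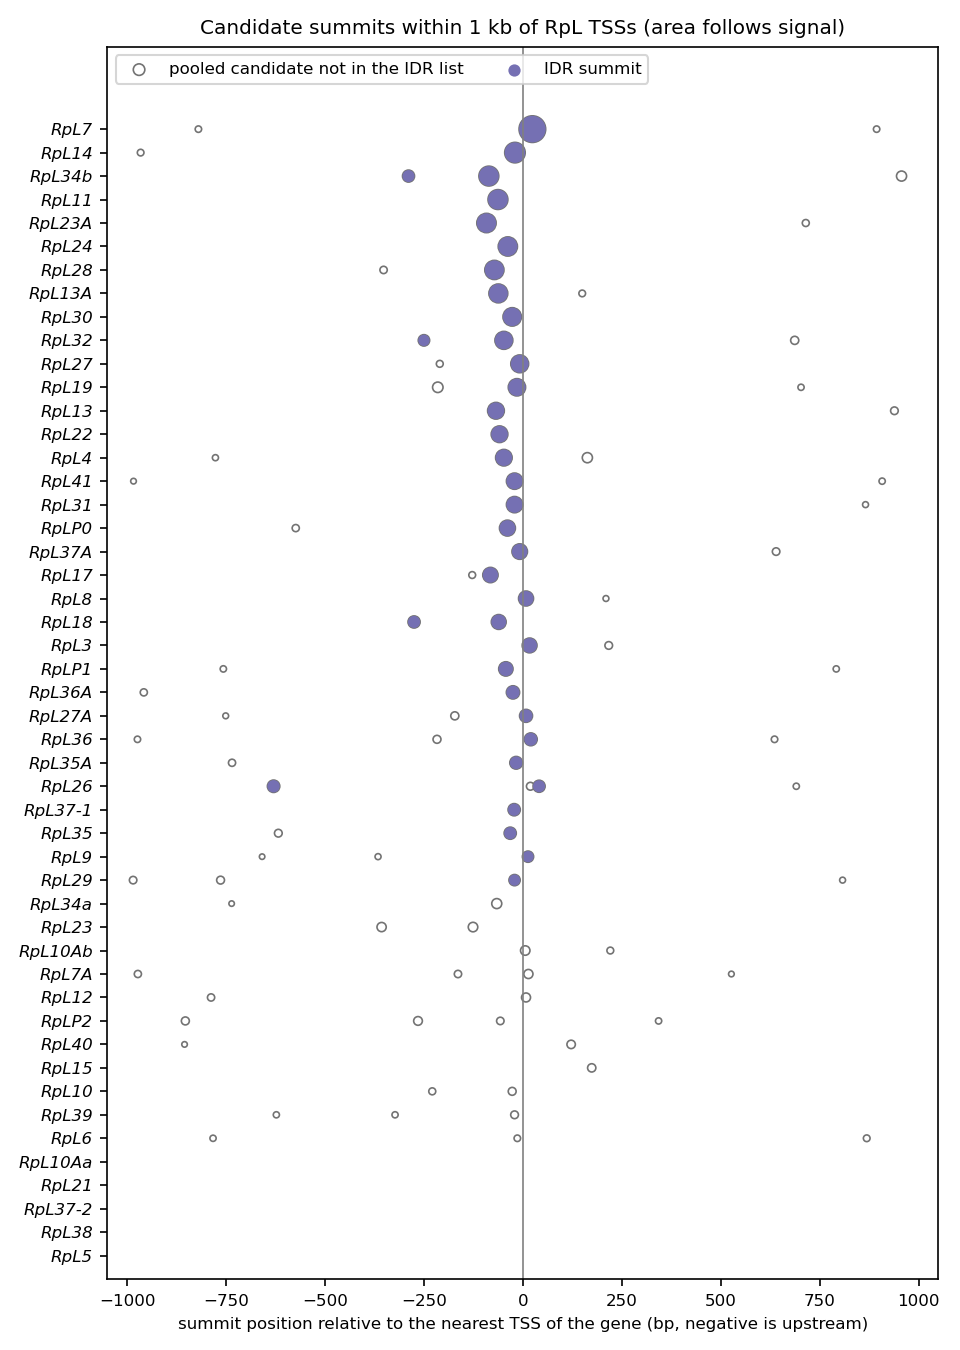
Every pooled candidate summit within 1 kb of a TSS of 49 RpL genes, ordered by pooled rank, with position relative to the nearest TSS on the x axis (bp, negative upstream) and symbol area following the signal. Filled symbols are their 37 IDR summits, most of which stack just upstream of the TSS line, with some just downstream and some farther upstream. Open symbols are other candidates and are scattered over the whole window.

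The libraries gave the same positions at most members. In 30 of 34, both libraries had one of their own strongest regions within 100 bp of the IDR summit, against 67.4% of all genes with a peak (1191 of 1766), and with all candidates counted it was 34 of 34. Such agreement is partly built in, since IDR peaks were kept for it. The peaks of members also ranked higher (median IDR rank 500, against 987 for all genes), and the part of this in their share was not tested. The strongest summits of both libraries were a median of 21.5 bp apart at these members, against 29.0 bp over all genes with a peak. They lay within 50 bp of each other at 29 members. For this count, the 34 of 34 and the next count, no share over all genes is given here. In 30 members they were on the same side of the TSS, and the other 4 were RpL8 (−17 and +8 bp in replicates 2 and 3), RpL30 (−31 and +13 bp), RpL37A (−246 and +12 bp) and RpL26 (−630 and +36 bp). The 3 members whose ranks differed most between libraries were RpL29, 1356 in replicate 2 and 7215 in replicate 3 (5.32-fold), RpL12, 3289 and 12337 (3.75-fold), and RpL35, 887 and 3312 (3.73-fold). Of these, RpL29 and RpL35 had IDR peaks yet ranked outside the 2177 strongest regions of replicate 3, where the strongest candidate of RpL29 lay at −700 bp.

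The limit of the IDR list cut through the members. Just inside it were RpL35 at rank 1598 (signal 67.7), RpL9 at 2161 (signal 58.0) and RpL29 at 2164 (signal 57.9). Just outside it were RpL34a at 3335, RpL23 at 4011 and RpL10Ab at 4122. No member ranked between 2164 and 3335. The limit of 1 kb played no such role for IDR summits, since the member IDR summit farthest from a TSS was that of RpL26 at −630 bp, and a distance of 2 kb added no member. In the pooled list the limit did leave out RpL5, whose nearest pooled summit lay 1361 bp away.

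Among the 16 members without an IDR summit, 11 had a pooled candidate. The strongest one lay at −66 bp at RpL34a, −126 bp at RpL23, +6 bp at RpL10Ab, +14 bp at RpL7A (rank 4674) and +8 bp at RpL12, a protein of the stalk base (rank 4914). At RpL10 (−27 bp) and at RpL39, which lines the exit tunnel (−21 bp, rank 8552), the signals were 28.7 and 27.5. RpLP2 had it at −265 bp, RpL40 at +122 bp and RpL15 at +174 bp (rank 6584). At RpL6 it lay at +869 bp in a coding exon (rank 14807, signal 20.7), with a slightly weaker one at −14 bp (rank 16469, signal 19.5). RpL38 had a candidate in replicate 3 alone, at −34 bp (rank 3665).

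The chromosomal position of some of these members was unusual. RpL5, RpL10, RpL15, RpL21 and RpL38 lay beyond the outermost IDR summit of their arm, where by that definition a peak can hardly be found. Of all 13945 protein-coding genes, 301 lay there, and 7 of these had an IDR summit within 1 kb. Pooled candidates within 500 kb numbered 1 at RpL15, 5 at RpL38, 23 at RpL5, 66 at RpL21 and 81 at RpL10, against 128 to 393 (median 283) at the other 45 members. The part of this position in the missing peaks was not tested.

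Initiator and DRE matches were frequent in RpL promoters, whether or not they had a peak. Motif counts use the window from 250 bases before to 50 after the main TSS unless another is given, as for the initiator and the TATA box. A match describes the letters, not a bound site. The TCT initiator, with its C within 2 bases of the TSS on the gene's strand, was found at 6 of 50 members (12.0%), against 0.581% of all promoters. Within 10 bases, a width chosen after the data had been seen, it was found at 36 (72.0%), against 2.86%. Members with and without an IDR summit had close shares, at 24 of 34 (70.6%) and 12 of 16 (75%). The DRE, which reads the same on both strands, was found at 13 members (26%), against 9.24%, again at similar shares with an IDR summit (9 of 34, 26.5%) and without (4 of 16, 25%). Motif 1, searched on both strands, was found at 6 members (12.0%), against 6.07%, and these 6 all had an IDR summit: RpL7, RpL19, RpL27, RpL27A, RpL37A and RpLP1. Over all promoters it was found at 8.04% of those with an IDR summit and 5.79% of those without. The member count is small, and a link between motif 1 and peaks was not tested.

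Matches to the other motifs were rare or absent, as they were in most promoters. The GCM octamers ATACGGGC, ATACGGGT, ATGCGGGC and ATGCGGGT, on both strands, had 0 matches in 50 RpL windows, against 0.982% of all promoters, and 0 in windows reaching 500 bases upstream, against 2.07%. The octamers were rare at bound genes in general, with 24 matches in 1766 promoters of genes with an IDR summit (1.36%). GAGAGAG, bound by GAF, had 0 matches on either strand, against 6.17% of all promoters. The TATA box TATAAA, starting 40 to 20 bases before the TSS on the gene's strand, was found at RpL39 alone (2.0%), where it shares letters with a DRE, against 7.86%. In the 9 members with both a DRE and an IDR summit the median distance was 20 bp and 7 lay within 50 bp, the farthest being 616 bp away at RpL26. Over all 214 such genes the median was 123 bp and 28.5% lay within 50 bp, and over the 95 of them with the summit within 100 bp of a TSS, as at nearly all members, it was 48.0 bp and 53.7%. For motif 1 the median over 6 members was 40 bp, from 12 bp at RpL27A to 216 bp at RpL19, against 71.0 bp over 57 genes with the summit within 100 bp of a TSS.

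Other translation genes differed among themselves. An IDR summit lay within 1 kb at 22 of 37 RpS genes of the small subunit (59.5%), at 16 of 52 eEF and eIF genes of translation factors (30.8%) and at 11 of 47 mRpL genes (23.4%). The 95% Wilson intervals were 54.2 to 79.2% for RpL, 43.5 to 73.7% for RpS, 19.9 to 44.3% for eEF and eIF and 13.6 to 37.2% for mRpL genes. They cover counting error over genes only and are no test between lists. By the strongest regions of replicates 2 and 3, the shares were 68.0 and 64.0% for RpL and 62.2 and 51.4% for RpS genes. They were 28.8 and 32.7% for eEF and eIF and 19.1 and 25.5% for mRpL genes. The median pooled rank was 730 for RpL genes, against 1485 for RpS, 3073.5 for eEF and eIF and 5913 for mRpL genes. The summit distance had a median of 29.5 bp for RpL genes, against 28.5 bp for RpS, 34.5 bp for eEF and eIF and 223 bp for mRpL genes. Nearness to the TSS was thus shared with RpS genes and the translation factors, and not with mRpL genes. However, only 3 of the 11 mRpL genes were the gene nearest their strongest IDR summit. This was so at 32 of 34 RpL, 17 of 22 RpS and 13 of 16 eEF and eIF genes. The mRpL distance therefore mostly describes summits that lay as near or nearer to another gene. Any pooled candidate was present at 90.0% of RpL genes, against 94.6% of RpS, 73.1% of eEF and eIF and 95.7% of mRpL genes, so that measure gave another order. The initiator within 10 bases was found at 72.0% of RpL promoters, 56.8% of RpS, 15.4% of eEF and eIF and 2.13% of mRpL promoters. The DRE was not particular to RpL promoters (26.0%), being found at 35.1% of RpS, 26.9% of eEF and eIF and 23.4% of mRpL promoters. No test of these differences was made.

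**Figure D4:**
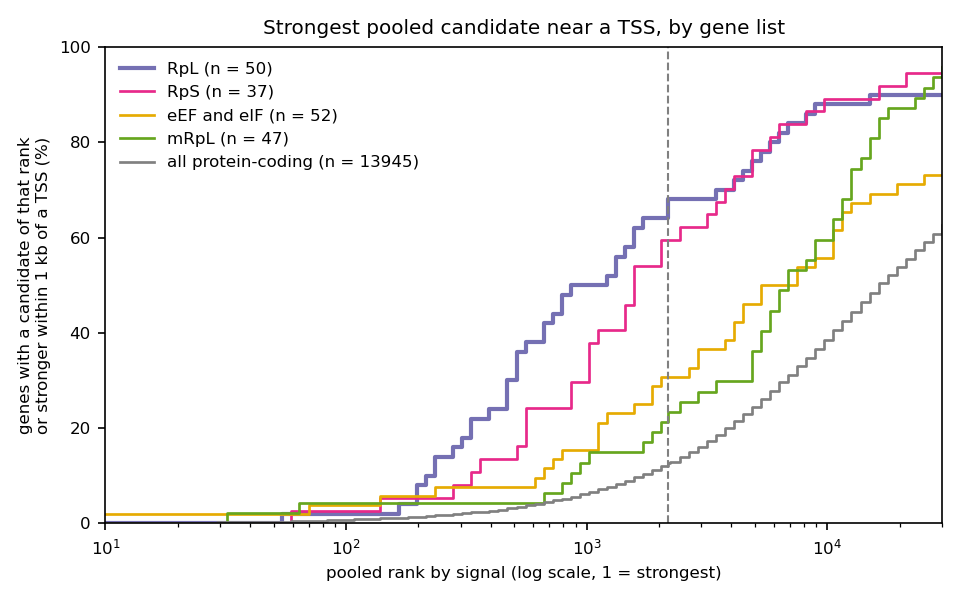
Percentage of genes with a pooled candidate of a given rank or stronger within 1 kb of a TSS, against that rank on a log scale with 1 the strongest, for 50 RpL, 37 RpS, 52 eEF and eIF and 47 mRpL genes and all 13945 protein-coding genes. At the dashed line (rank 2177, the last IDR peak) the RpL curve stands at 68.0%, against 12.7% for all genes.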

How the data were processed

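ChIP-seq regions of 2 libraries, biological replicates 2 and 3 of 1 group, were used as 4 deposited dm6 lists: 1 per replicate, 1 pooled (30000 candidates each) and 1 of 2177 IDR peaks, which were the strongest pooled candidates. The signal of a region is the authors' enrichment value, its −log10 q-value is the authors' too, and the summit offset deposited with each region gave the summit. For the aligner, the peak caller, the IDR threshold and repeated sequence, the settings were not given in the sources used here. Read depth is unknown. The 4 dm3 lists were not used here.

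Summits were compared with TSSs of the Ensembl 115 annotation and the Release 6 sequence, with Python 3.11.15, pandas 2.3.3, numpy 2.4.6 and scipy 1.17.1. The distance step was tested on simulated data, and the rank step was not. A gene counted when a summit lay within 1 kb of any of its TSSs, and its strongest such summit gave rank and offset. With 1 group there was no comparison of conditions and no p-value. Genes off the 6 arms (41) were left out.

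Members and lists were chosen with earlier results of these data known. Named were the 15 members with the strongest IDR peaks, those without a peak, the stalk, 5S RNA and core genes, paralog pairs, members next to the limits and those whose ranks differed most. Alternatives changed the distance, the TSS, the threshold, the summit, the motif window and the replicate. The values of 1 member are not reported here one by one, though it is in all counts, and it was left out of the plots by gene.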

Additional observations from a re-analysis of the deposited data

How the results depend on the processing

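The count of 34 RpL genes with an IDR summit within 1 kb was 34 at 250 bp, 500 bp and 2 kb and with the main TSS only, 32 when a TSS had to lie inside the region, 33 when no other gene could be nearer, 25 with the 1088 strongest IDR peaks and 42 with candidates of q at or below 0.05. Leaving out 1 replicate gave 32 to 34. The median summit distance of 29.5 bp was 53.0 bp from the main TSS only (all genes 178 bp) and 43.0 bp with the 1088 strongest peaks (all genes 175.5 bp), and 30.0 to 45.0 bp with 1 replicate left out; without replicate 2 it moved by over 1.5 times, to 45.0 bp. The median rank of 730 was 878 to 977 with 1 replicate left out. The 30 members with both libraries at the summit were 29 to 34 in 4 settings. The TCT share of 12.0% was 72.0% within 10 bases, a setting added after the data had been seen, since most matches lay 3 to 10 bases after the annotated start. GAGAGAG reached 4.0% in windows of 500 bases. At the TSS nearest the summit, which takes the 34 members with a peak only, motif 1 had 20.6% and the TATA box 0, against 17.6% and 0 for the same 34 at the main TSS. No paired analysis was possible because there is 1 group and no test. No result reversed. Limits are the unknown depth, 2 libraries, no untagged control and regions of fixed width around most summits, so distances of a few bp are not resolved.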

Other observations

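Several RpL genes hold small nucleolar RNA genes, which guide the modification of ribosomal RNA, inside their own bounds. This was so at 16 members, of which 12 had an IDR peak near the start (summit within 1 kb) and 4 did not. Of all 96 protein-coding genes holding such RNAs, 40 (41.7%) had such a peak, a count that includes these members. The members with most were RpL28 with 5 and RpL3, RpL17 and RpL23A with 4 each, and all 4 had an IDR peak. RpL genes were short, with a median of 1325.5 bp against 2166 bp for all protein-coding genes. The median was 1407.5 bp for members with an IDR summit and 1131 bp for those without. Median GC content of the promoter window was 38.4% at members with a peak, 32.6% at those without and 38.2% over all promoters.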
